A study of Rattus norvegicus with 20 samples.

Results

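The comparison is of rat kidneys 2 days into exposure to aristolochic acid I (AAI) with kidneys of vehicle rats, by microRNA (miRNA) array. Its members are the 10 arrays, of 20 in the series, whose titles name the treated kidney at 2 days (5 arrays) or the control kidney at 6 days (5 arrays). All donors were male Wistar rats of 80 to 100 g and no genotype other than the strain is given. AAI was given intraperitoneally at 40 mg per kg, and the vehicle rats received PEG400 in water on the same schedule. How many doses a rat had received by day 2 is not clear from the labels. The vehicle kidneys were all collected on day 6, so treatment and day of collection differ together between the groups and cannot be told apart. The other 10 arrays, 5 from AAI day 4 and 5 from AAI day 6, entered the same fit and are used below to follow the members over time. The labels speak of 5 kidneys in each group. The p-values of the shared fit measure the spread between kidneys within all 4 groups, AAI day 4 and day 6 included.

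Aristolochic acid is a plant nitro compound that is taken up by the proximal tubule, forms DNA adducts after its reduction and causes acute tubular injury. A miRNA is cut from a hairpin that has a 5p arm and a 3p arm, and as a rule one arm is kept while the other is degraded. The kept strand guides repression of mRNAs mainly through its seed, which is the stretch of bases 2 to 8.

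The mature sequences of the miRNAs on which the results turn are given next, 5′ to 3′, with the seed in capitals (RefSeq, build GRCr8). The first 3 were called higher at day 2. miR-21-5p and miR-23a-3p are the other arms of 2 called miRNAs, and the last 3 differed between day 6 and day 2.
miR-21-3p: cAACAGCAgucgaugggcuguc
miR-465-5p: uAUUUAGAacggugcuggugug
miR-551b-5p: gAAAUCAAgcuugggugagaccu
miR-21-5p: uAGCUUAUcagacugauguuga
miR-23a-3p: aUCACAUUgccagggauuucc
miR-34a-5p: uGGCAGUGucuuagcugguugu
miR-146a-5p: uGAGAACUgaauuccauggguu
miR-451-5p: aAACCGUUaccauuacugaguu

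For miR-551b-5p, miR-21-3p and miR-465-5p the probes pair with the 3′ end of the mature strand. They read none of the seed of miR-551b-5p and miR-465-5p, and only its last base in the longest probe of miR-21-3p. The bases read by the longest probe of each called miRNA are given to show what was measured, in DNA letters from the array files. For miR-23a-5p they are the only sequence printed.
miR-23a-5p: ctggggatgggattt
miR-21-3p: agtcgatgggctgtc
miR-465-5p: cggtgctggtgtg
miR-551b-5p: gcttgggtgagacct
The miR-23a-5p stretch lies at rn4 chr19:25638760-25638774, on the minus strand. The miR-21-3p stretch lies at rn4 chr10:74864562-74864576, also on the minus strand. Those of miR-465-5p and miR-551b-5p lie at rn4 chrX:152868900-152868912 on the minus strand and chr2:114095903-114095917 on the plus strand. In the RefSeq table, with strand not given, the miR-551b hairpin lies within the protein-coding gene Egfem1 and the miR-465 hairpin within a long noncoding RNA gene, while no other gene spans the whole of the miR-21 or miR-23a hairpin. Among the 641 of 719 array miRNAs with a RefSeq mature sequence, no other has the seed of miR-551b-5p, miR-21-3p or miR-465-5p.

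Most of the kidney miRNAs listed were detected on every array of both groups. Of the 15 kidney-enriched miRNAs listed, 13 were tested and these were detected on all 10 arrays, among them miR-192-5p, miR-194-5p and the miR-30 family. The others, miR-215 and miR-211-5p, were on the array and detected on 0 arrays of either group. Among miRNAs of other tissues, miR-1-3p, miR-133a-3p and miR-208a-3p of muscle and heart and miR-216a-5p and miR-217-5p of pancreas were detected on 0 arrays. miR-122-5p of liver was detected on 1 vehicle array, and miR-206-3p and miR-124-3p on 1 AAI day 2 array each. miR-133b-3p, miR-9a-5p and miR-375-3p were detected on all 10. The number of miRNAs detected per array was 264.6 ± 4.16 (SD, n = 5) in vehicle and 269.4 ± 11.5 (SD, n = 5) at AAI day 2, a difference that did not pass a two-sided exact permutation test (p = 0.556). The 75th percentile signal used for scaling was 367 ± 51.9 intensity units in vehicle and 452 ± 83.6 at AAI day 2 (SD, n = 5 each), a ratio of 1.23 with an exact permutation p of 0.0635. Spike-in control spots differed by a ratio of 1.03 (exact permutation p = 0.5). Slides are a further difference: vehicle arrays 1 to 4 lie on slide 3, while slide 2 holds vehicle array 5 with every AAI day 2 array and AAI day 4 arrays 1 and 2.

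At day 2 few miRNAs had moved. Of 262 miRNAs tested, 4 were higher at a limma adjusted p under 0.05 (1.53% of those tested) and 0 were lower. At an unadjusted p under 0.05, 17 were higher (6.49%) and 12 lower (4.58%), 29 in all. Leaving AAI day 4 array 2 out of the shared fit gave 41 at that level and 1 lower call, miR-33-5p. A fit to the 2 groups alone gave 48 at that level. They were miR-21-3p, miR-23a-5p, miR-551b-5p and miR-465-5p, and their fitted increases ran from 1.22 to 1.99 on the log2 scale. All 4 were faint, and none was detected on all vehicle arrays, so they entered the test only through AAI groups and their count is no independent support for a rise. Kidney is a mixed tissue, and in such bulk RNA more cells of a type and more RNA per cell cannot be told apart, nor fewer cells and less RNA.

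**Figure D1:**
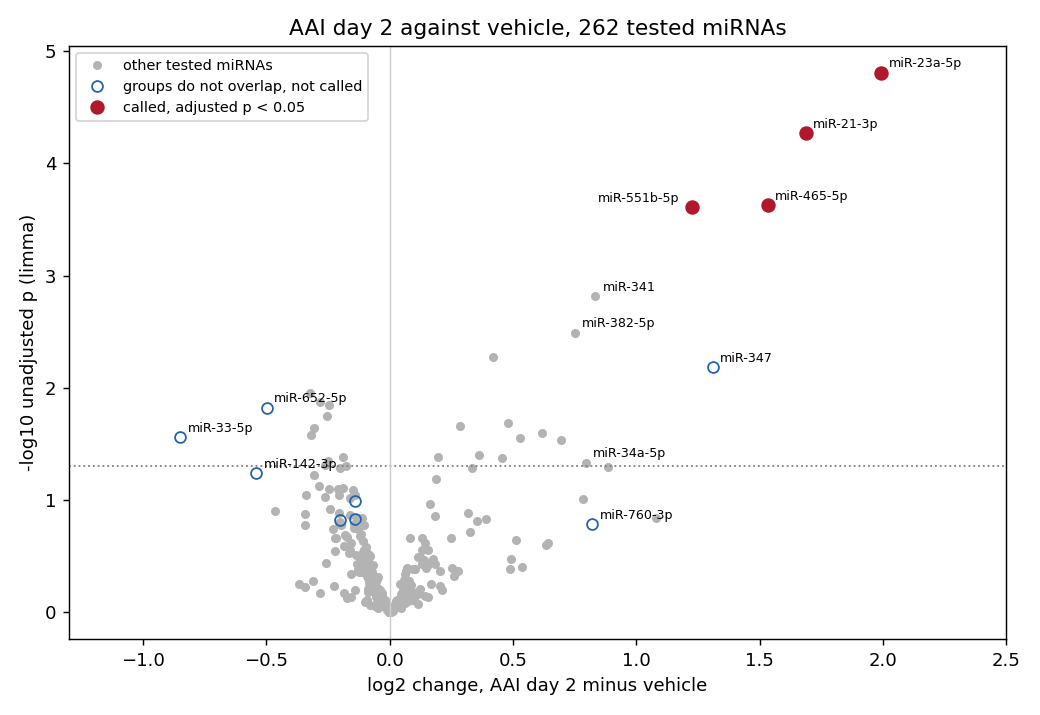
Log2 change (AAI day 2 minus vehicle, horizontal) against -log10 of the unadjusted limma p (vertical) for 262 tested miRNAs, with a dotted line at an unadjusted p of 0.05. The 4 called miRNAs (filled red) lie at the upper right, between 1.22 and 1.99, and open blue circles mark miRNAs whose groups do not overlap but that were not called.

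miR-23a-5p is the strand of the miR-23a hairpin that is usually degraded. In the values that follow, signal is relative to the array's 75th percentile, which is set to 100. Its relative signal on vehicle arrays 1 to 5 was -0.531, 1.46, 1.00, -0.0945 and 1.17. On AAI day 2 arrays 1 to 5 it was 2.09, 3.46, 3.71, 4.68 and 6.78. Every AAI array lay above every vehicle array. miR-23a-5p was detected on 0 vehicle arrays and 4 AAI arrays, so its vehicle level is only a bound. Spots of its longest probe were well above background in 0 of 25 cases in vehicle and in 7 of 25 at AAI day 2. Any spot was well above background on 0 vehicle arrays and on 2 AAI day 2 arrays. The AAI day 2 mean lay 3.83-fold above the vehicle bound, which is a point estimate with no interval and no minimum. For that bound each vehicle array took the higher of its lowest detected signal and its own value for miR-23a-5p. The fitted log2 change was 1.99 ± 0.34 (SE; limma adjusted p = 0.0041). The dominant strand of the hairpin, miR-23a-3p, had a log2 change of -0.01 ± 0.09 (SE). miR-27a-3p and miR-24-3p, which come from hairpins beside miR-23a, had changes of -0.01 ± 0.11 and -0.04 ± 0.08, and neither passed the test.

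miR-21-3p comes from the hairpin of miR-21, whose 5p strand is abundant in injured kidney. Its relative signal was 4.40, 3.16, 2.27, 1.82 and 2.83 on the vehicle arrays. It was 9.15, 10.6, 4.39, 14.6 and 9.20 on the AAI day 2 arrays. The groups overlapped by AAI array 3 alone, which lay just below vehicle array 1. The level rose 3.22-fold (95% interval 2.02 to 5.15), a log2 change of 1.69 ± 0.32 (SE; limma adjusted p = 0.0070). Spots of its longest probe were well above background in 3 of 25 cases in vehicle and in 24 of 24 at AAI day 2. The 5p strand, miR-21-5p, did not pass the test, with a log2 change of 0.12 ± 0.24 (SE; limma adjusted p = 0.890). The difference between the strands was not tested.

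miR-465-5p belongs to an X-linked group of miRNAs known mainly from testis. Vehicle arrays gave a relative signal of 2.99, 2.74, 1.07, 0.886 and 2.40, and AAI day 2 arrays gave 3.53, 4.02, 5.10, 6.34 and 8.32. The groups did not overlap. None of the vehicle spots was well above background (0 of 49 for the longer probe, against 29 of 47 at AAI day 2), so the vehicle level is again only a bound. Against the vehicle values as measured, miR-465-5p was 2.90-fold higher, which is a point estimate and no minimum. The fitted log2 change was 1.53 ± 0.34 (SE; limma adjusted p = 0.0161). It was detected on 1 vehicle array and 5 AAI arrays, and its other strand, miR-465-3p, on 0 of either. Of the other testis miRNAs listed, miR-471-5p, miR-743a-3p and miR-741-3p were detected on 0 arrays of the 2 groups.

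miR-551b-5p had a relative signal of 2.46, 3.54, 3.75, 3.02 and 2.07 in vehicle. At AAI day 2 it was 7.23, 6.12, 6.02, 9.18 and 5.83, so that the groups lay well apart. The level rose 2.34-fold (95% interval 1.58 to 3.46; log2 change 1.22 ± 0.27 SE, limma adjusted p = 0.0161). It was detected on 2 vehicle and 5 AAI arrays. Spots of its longer probe were well above background in 0 of 44 cases in vehicle and in 23 of 50 at AAI day 2. For the shorter probe the counts were 4 of 47 and 45 of 49, so the vehicle level lay close to background. The other strand, miR-551b-3p, was detected on 0 arrays of either group.

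**Figure D2:**
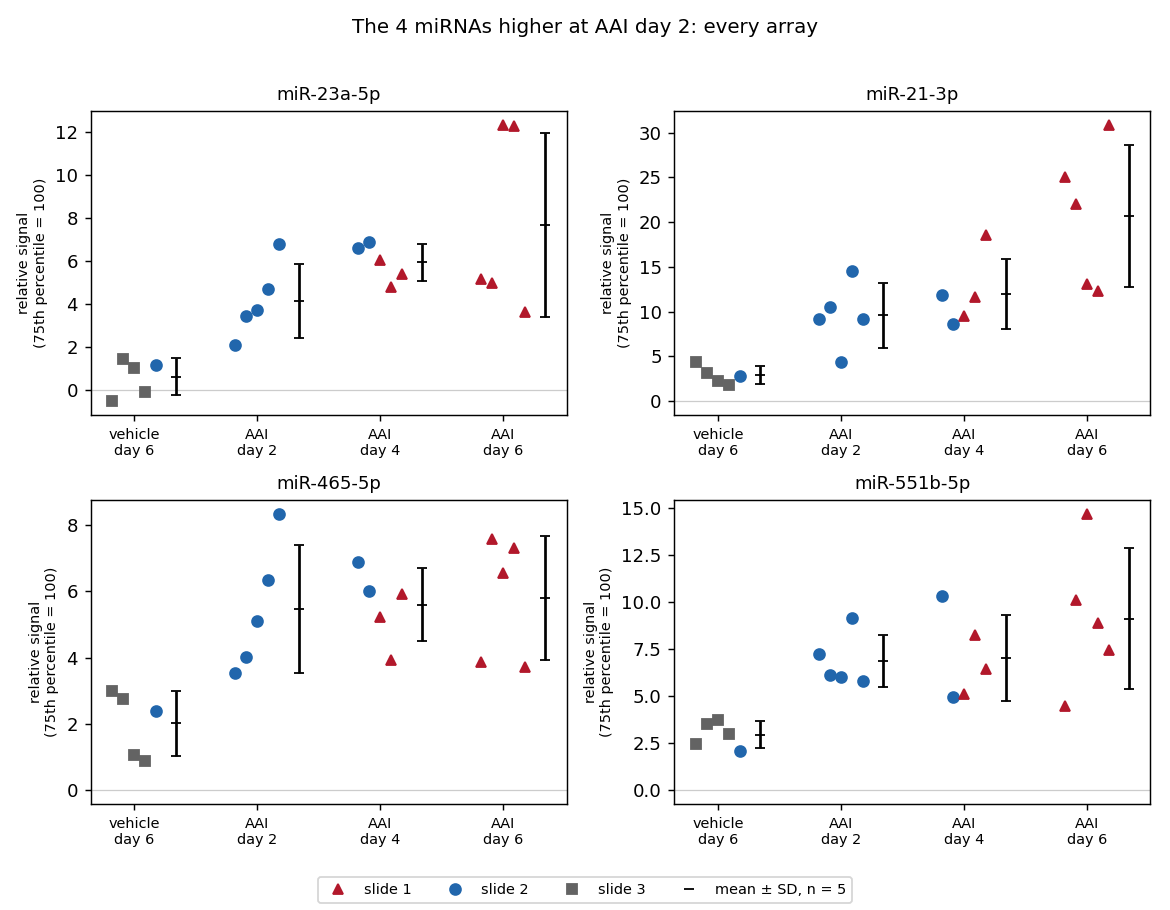
Relative signal (75th percentile of the array = 100, linear axis) of the 4 called miRNAs on each of 20 arrays, by group, with the slide as colour and shape and the mean ± SD over 5 arrays as a black bar. All 5 AAI day 2 arrays (slide 2) lie above vehicle array 5 (the vehicle array on slide 2) for each of the 4 miRNAs.

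The calls depended on how the slide entered the fit, on the background correction and, for some of the 4, on other settings. Against vehicle array 5 alone, on the shared slide, the log2 changes were 1.72 for miR-23a-5p, 1.66 for miR-21-3p, 1.11 for miR-465-5p and 1.71 for miR-551b-5p, and all 5 AAI arrays lay above that array for all 4, which held for 15.3% of the tested miRNAs. None of the 4 passed within slide 2 (lowest limma adjusted p 0.56 over all tested miRNAs), with slide as a fixed block (0.59) or with slide as a random block (0.083). With normexp background correction and an offset of 50, all 4 changes lay between -0.11 and -0.0044. At that setting 0 miRNAs were called (7 at an unadjusted p under 0.05). That offset is added to every spot and exceeds the probe intensities given below, so it draws changes of faint miRNAs toward 0. With normexp without offset, or with the offset but without scaling, all 4 changes lay above 0 and 0 miRNAs were called. Quantile normalization also ended the calls of miR-551b-5p and miR-465-5p (limma adjusted p = 0.056 for both), and the deposited series table those of miR-23a-5p and miR-21-3p (limma adjusted p = 0.070 and 0.084). Single calls were lost with the software's total signal (miR-21-3p, 0.48), after subtraction of the negative-control mean (miR-23a-5p, 0.064) and in a fit to the 2 groups alone (miR-465-5p, 0.070). Leaving out AAI day 2 array 4 left 2 calls, without miR-465-5p and miR-551b-5p (limma adjusted p = 0.068 for both). Single arrays also ended the call of miR-465-5p (vehicle arrays 3 and 4, AAI day 2 array 5) or of miR-551b-5p (vehicle arrays 1 and 5), with limma adjusted p-values from 0.054 to 0.067. The intensities concerned are small. The longest probe of miR-21-3p averaged 7.17 units in vehicle and 21.1 at AAI day 2, and that of miR-23a-5p 3.78 and 9.81. Negative control spots averaged 1.67 ± 0.56 and 1.38 ± 0.43 in these groups (SD over 5 arrays). The part of the slide and of the background in these results was not tested further.

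**Figure D3:**
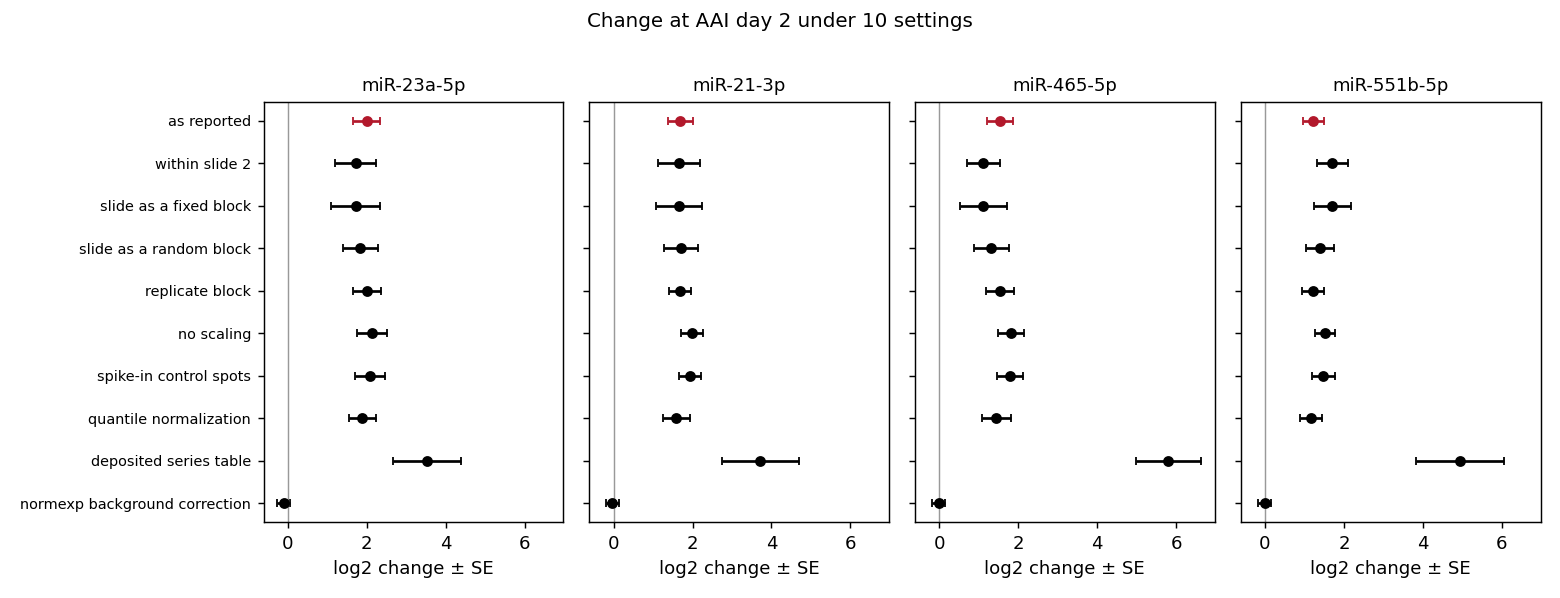
Log2 change at AAI day 2 (horizontal, ± SE) of the 4 called miRNAs under 10 settings (rows), with the reported value in red. The changes keep their sign in 9 settings and lie near 0 with normexp background correction (offset of 50), and the deposited series table gives the largest changes drawn.

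Among miRNAs that did not pass, several had higher AAI values. miR-347 had a relative signal of 31.0, 49.5, 45.7, 30.4 and 26.6 in vehicle and of 99.1, 69.6, 88.7, 85.4 and 102 at AAI day 2. The groups did not overlap, yet the log2 change of 1.31 ± 0.43 (SE) had a limma adjusted p of 0.215 in the fit over 4 groups. In a fit to the 2 groups alone miR-347 was called (1.31 ± 0.18 SE, limma adjusted p = 0.0062). Its probes hold only 12 and 13 bases, no chromosome position was found for them, and RefSeq held no mature sequence for miR-347. miR-341, from the imprinted Dlk1-Dio3 region, had 9.15, 8.95, 9.69, 8.44 and 11.9 in vehicle and 12.6, 14.5, 10.9, 26.4 and 27.3 at AAI day 2. Here AAI arrays 4 and 5 were high and array 3 lay below vehicle array 5 (log2 change 0.83 ± 0.22 SE, limma adjusted p = 0.0795). miR-382-5p, from the same region, had a log2 change of 0.75 ± 0.22 (SE; adjusted p = 0.141 in limma). miR-760-3p did not overlap between the groups but had a wide error in the fit over 4 groups (0.82 ± 0.57 SE). In the fit to the 2 groups alone it had 0.82 ± 0.18 (SE) and was called (limma adjusted p = 0.042).

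On the lower side no miRNA passed in the fit to all 20 arrays. Counting the tested miRNAs whose groups did not overlap after scaling, 5 were higher (1.91%) and 6 lower (2.29%), which makes 11 (4.2%). miR-33-5p, which sits within the Srebf2 gene and restrains cholesterol export genes, had a relative signal of 3.21, 4.48, 4.68, 3.88 and 3.60 in vehicle and of 2.66, 1.84, 2.92, 1.95 and 1.77 at AAI day 2. After scaling, all AAI arrays lay below all vehicle arrays, and the log2 change was -0.85 ± 0.35 (SE; limma adjusted p = 0.361). This miRNA is faint: spots of its longest probe were well above background in 14 of 29 cases in vehicle and 2 of 30 at AAI day 2. For its other probes 0 spots were. Without AAI day 4 array 2, whose miR-33-5p signal of 0.534 was far below the others of that group, the change was -0.85 ± 0.21 and called (limma adjusted p = 0.036). miR-652-5p had 167, 167, 167, 178 and 158 in vehicle against 120, 87.3, 139, 126 and 127 (log2 change -0.50 ± 0.19 SE, limma adjusted p = 0.327). miR-142-3p, a miRNA of blood cells, had 37.0, 38.6, 35.5, 40.0 and 33.0 against 25.4, 21.8, 30.6, 25.4 and 23.9 (log2 change -0.54 ± 0.27 SE, limma adjusted p = 0.455). The other 3 without overlap after scaling were miR-101a-3p, miR-196b-5p and miR-532-5p, with log2 changes of -0.20, -0.14 and -0.14 that lay above 0 without scaling between arrays. Without that scaling the groups overlapped for miR-33-5p, miR-652-5p and miR-142-3p, whose changes stayed below 0. In a fit to the 2 groups alone, 8 miRNAs were called, 5 higher and 3 lower. The 5 higher were miR-347, miR-760-3p and 3 of the 4 called in the fit to all 20 arrays. The 3 lower were miR-142-3p, miR-33-5p and miR-652-5p.

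The lists of miRNAs by role showed small shifts at day 2. Over all 262 tested miRNAs, 99 (37.8%) had a change above 0 and the median log2 change was -0.04 after scaling, 0.25 without scaling and 0.21 with spike-in scaling, so list medians are read against these. Of the 7 tested p53-induced miRNAs, 0 were called, and the median was -0.05. miR-34a-5p, the main p53 target among them, had a relative signal of 14.6, 16.7, 19.4, 18.0 and 19.0 in vehicle and of 18.2, 41.4, 26.5, 41.4 and 30.9 at AAI day 2. AAI array 1 lay within the vehicle range and the other 4 lay above it (log2 change 0.80 ± 0.37 SE, limma adjusted p = 0.427). miR-34b-5p and miR-34c-5p, cut from a shared transcript, had changes of 0.12 ± 0.28 and 0.17 ± 0.28 (SE).

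Of 11 tested miRNAs reported higher in injured kidney, 1 (miR-21-3p) was called, and the median was 0.09. Of the 7 tested members of the miR-23/27/24 clusters, 1 (miR-23a-5p) was called. Over all tested miRNAs 1.53% were called. The lists were written with earlier results of these data known, so a call within a list is no support for that list. The kidney-enriched list had 0 of 13 called, with 12 below 0 (median -0.07, and 0.23 without scaling). Its lowest value was that of miR-194-5p (-0.25 ± 0.13 SE, not called). All 8 let-7 members lay below 0 (median -0.08, but 0.21 without scaling) and all 9 members of the miR-17 cluster list, which includes its relatives, lay above 0 (median 0.06), and none of either was called. The 5 members of the epithelial miR-200 family had a median of -0.05 and the 3 of the miR-29 family one of -0.08, with 0 called. The 10 miRNAs with the highest mean vehicle signal, led by miR-26a-5p and let-7a-5p, had changes between -0.10 and -0.02, and between 0.19 and 0.28 without scaling, and 0 were called.

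The lists for other cell types were measured in the same way. The 7 tested leukocyte miRNAs had a median of -0.25 (0.05 without scaling), with 5 below 0 and 0 called, and miR-142-3p and miR-223-3p (-0.34 ± 0.19 SE) were among the lowest. The erythrocyte miRNA miR-451-5p had a change of -0.05 ± 0.34 (SE). The 5 stromal and smooth muscle miRNAs had a median near 0 (-0.0036), the 2 endothelial ones a median of -0.05, and the hypoxia-induced miR-210-3p a change of 0.15 ± 0.17 (SE). In the list for other tissues, also written with earlier results known, 1 of 4 tested (miR-465-5p) was called, against 1.53% of all tested miRNAs. The part of cell composition in the day 2 changes was not tested.

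**Figure D4:**
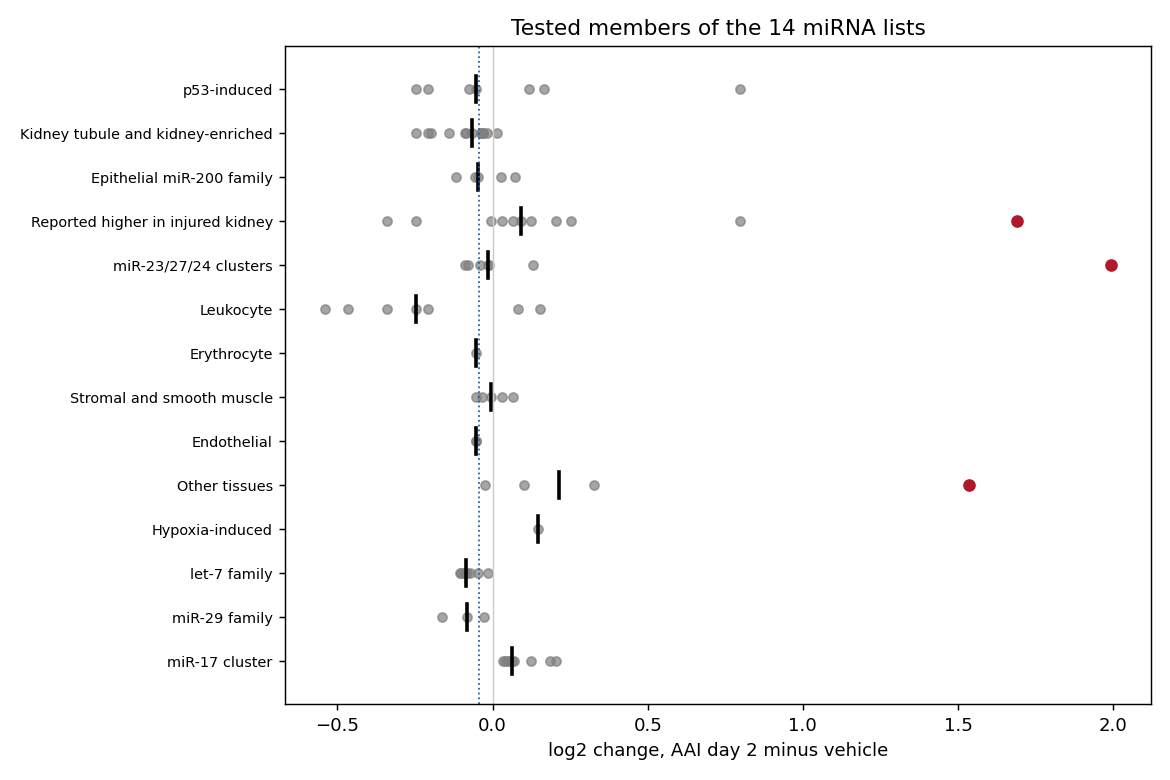
Log2 change at AAI day 2 (horizontal) of each tested member of 14 miRNA lists (rows), with called miRNAs in red, the list median as a black bar and the median of all 262 tested miRNAs (-0.04) as a dotted line. All members other than the 3 called ones lie between -0.54 and 0.80.

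Later AAI kidneys were also compared with those of day 2. From day 2 to day 4, limma called 0 of 262 miRNAs, with 20 (7.63%) at an unadjusted p under 0.05. With slide as a fixed block 34 were called, 11 higher and 23 lower. From day 2 to day 6, 29 were called (11.1%), 9 higher (3.44%) and 20 lower (7.63%). All day 6 arrays lie on slide 1 and all day 2 arrays on slide 2, linked only through day 4 arrays on both, and with slide as a fixed block 95 were called. Without scaling 3 were called, and 16 with quantile normalization. Leaving out AAI day 6 array 5 left 8, AAI day 6 arrays 1 and 3 left 19 and 16, and AAI day 2 arrays 1, 2 and 5 left 15, 15 and 16.

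miR-34a-5p at day 6 had a relative signal of 177, 88.7, 134, 69.5 and 275. All these values lay above the day 2 values, and the log2 difference from day 2 was 2.12 ± 0.37 (SE; limma adjusted p = 0.0026). miR-34b-5p and miR-34c-5p were also higher at day 6 than at day 2, by 0.99 ± 0.28 (adjusted p = 0.027 in limma) and 1.11 ± 0.28 (adjusted p = 0.024). miR-21-5p, which had 1169, 1121, 868, 1410 and 1179 at day 2, had 4064, 2236, 1506, 1353 and 3158 at day 6. AAI day 6 array 4 lay within the day 2 range, and the log2 difference was 0.99 ± 0.24 (SE; limma adjusted p = 0.023). miR-21-3p, already called at day 2, was higher again at day 6 (25.1, 22.1, 13.1, 12.3 and 30.9), by 1.12 ± 0.32 (limma adjusted p = 0.0306). The other 3 called miRNAs did not differ between day 6 and day 2 at the threshold: the log2 differences were 0.81 ± 0.34 for miR-23a-5p, 0.09 ± 0.34 for miR-465-5p and 0.33 ± 0.27 for miR-551b-5p.

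Among the decreases, miR-451-5p, carried by red blood cells, had 55.3, 87.3, 120, 73.1 and 54.2 at day 2 and 11.6, 19.5, 12.8, 13.5 and 5.55 at day 6. The days did not overlap, and the log2 difference was -2.67 ± 0.34 (SE; limma adjusted p = 6.52e-05). miR-146a-5p, a miRNA induced by NF-kB signalling that restrains it, fell by 0.47 ± 0.09 from day 2 to day 6 (SE; limma adjusted p = 0.0048). At day 2 its change from vehicle was -0.25 ± 0.09 (adjusted p = 0.327 in limma) after scaling and 0.05 without scaling.

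**Figure D5:**
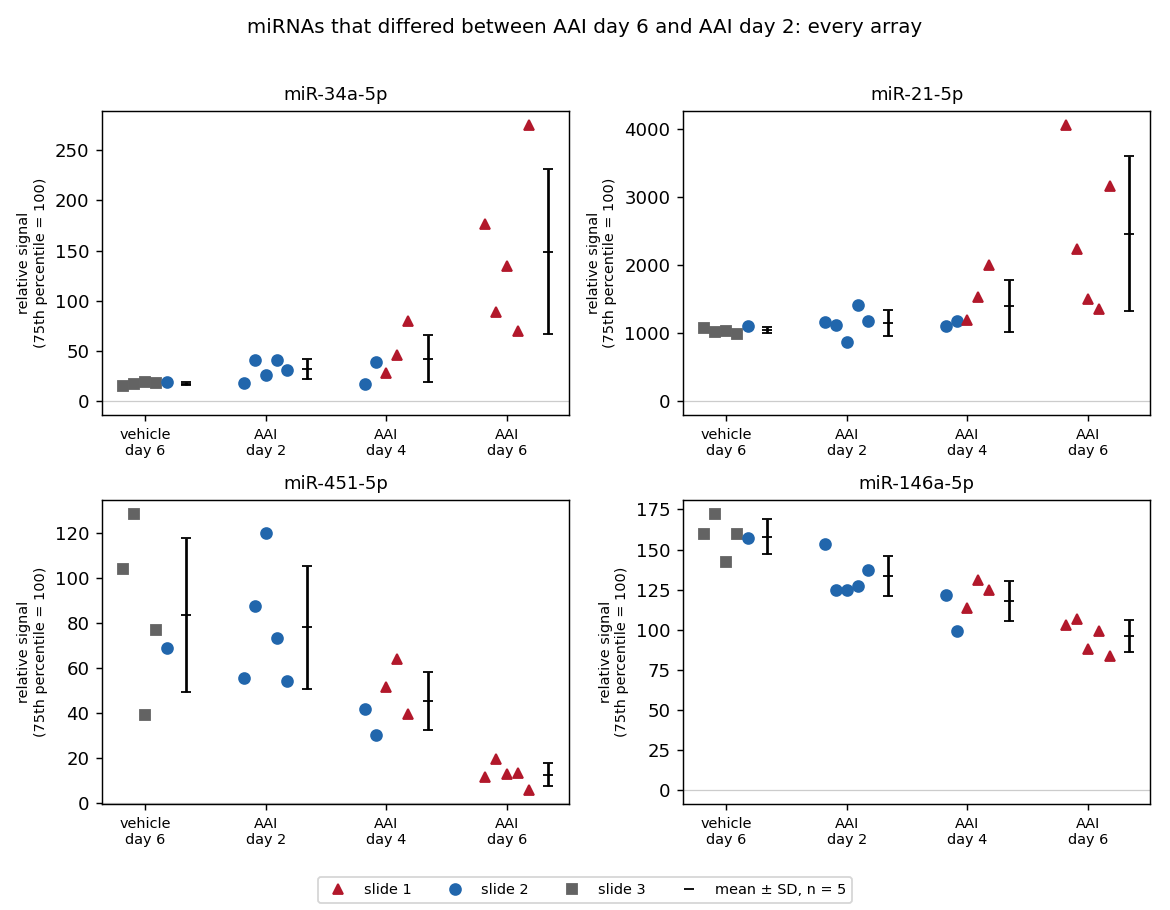
Relative signal (75th percentile of the array = 100, linear axis) of miR-34a-5p, miR-21-5p, miR-451-5p and miR-146a-5p on each of 20 arrays, by group, with the slide as colour and shape and the mean ± SD over 5 arrays as a black bar. miR-34a-5p runs from 18.2 to 41.4 at AAI day 2 and from 69.5 to 275 at AAI day 6, and miR-451-5p from 54.2 to 120 and from 5.55 to 19.5.

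Against the same vehicle arrays, the called miRNAs had the following log2 changes on days 2, 4 and 6, which share those arrays and are given side by side only. For miR-23a-5p and miR-465-5p, whose vehicle levels are bounds, these are fitted values. miR-23a-5p had 1.99, 2.61 and 2.81 (1.94, 2.55 and 2.75 over the bound). miR-21-3p had 1.69, 2.06 and 2.81. miR-465-5p had 1.53, 1.61 and 1.62. miR-551b-5p had 1.22, 1.22 and 1.55. miR-34a-5p, not called at day 2, had 0.80, 1.09 and 2.92.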

How the data were processed

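The deposited scanner files come from Agilent Feature Extraction 10.7.1.1, per the file headers, and hold background-subtracted spot intensity with no scaling between arrays. Their other columns used are deposited flags (0 or 1) for detection and outliers. How the log2 values of the deposited series table were made is not given in the sources used here, so it served as an alternative. Unflagged spots were averaged per probe, summed per miRNA, divided by the array's 75th percentile over 231 miRNAs detected on all 20 arrays, floored at 0.70% of it and put on a log2 scale. Of 719 rat miRNAs, 262 were detected on every array of 1 or more groups and were tested with limma 3.58.1 (R 4.3.3) over 4 groups, with 16 residual degrees of freedom and two-sided p-values adjusted (Benjamini-Hochberg) over all 262. A call is an adjusted p under 0.05. Array measures were compared by exact permutation over 252 splits. Members, lists and tests were chosen with earlier results of these data known. The text names the called miRNAs, the smallest p-values, those without overlap, their other arms and list members. Same-numbered arrays correlated between -0.24 and 0.38, so the numbers do not pair them. Scripts were tested on simulated data. RefSeq held a mature sequence for 23 of 25 named miRNAs. The number of arrays limits the precision.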

Additional observations from a re-analysis of the deposited data

Results flagged for a closer look

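Of 92 miRNAs checked among those named and the list members, 15 differed between AAI day 6 and AAI day 2 by limma's test of that difference, against 29 of all 262 tested (11.1%). Over all miRNAs the count was 3 without scaling and 2 with spike-in scaling. The log2 differences, day 6 minus day 2, were 2.12 for miR-34a-5p, 1.12 for miR-21-3p, 1.11 for miR-34c-5p, 0.99 for miR-34b-5p and 0.99 for miR-21-5p. They were 0.47 for miR-29b-3p and 0.43 for miR-29a-3p. On the lower side they were -2.67 for miR-451-5p, -0.47 for miR-146a-5p, -0.44 for miR-342-3p, -0.37 for miR-185-5p, -0.33 for miR-181a-5p, -0.32 for miR-214-3p, -0.31 for miR-196c-5p and -0.28 for miR-196a-5p. All 5 day 6 arrays lie on another slide than the day 2 arrays.

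miR-129-5p lay outside the detection filter and was picked after its values were seen. It was detected on 0 vehicle arrays, 1 AAI day 2 array, 4 day 4 arrays and 3 day 6 arrays. Its relative signal was 0.645, 0.635, 0.819, 0.749 and 1.25 in vehicle and 1.61, 2.39, 2.17, 2.71 and 2.94 at AAI day 2. The groups did not overlap. A fit to miRNAs detected on at least 1 array gave a log2 change of 1.49, which is no measured size: no spot was well above background on any array of either group (0 of 5 arrays each), and 2 vehicle values lay at the floor.
An array stood far from the rest of its group in 5 of the 108 groups of 5 checked (25 named miRNAs and 2 array measures in 4 groups), and chance gives about 1 in 20. None of the 5 was in the vehicle or AAI day 2 group. AAI day 4 array 2 was far below its group for miR-33-5p and miR-101a-3p (gap over range 0.792 and 0.818) and far above it in detected miRNAs (0.746, with 328 detected). AAI day 6 array 2 was far above its group for miR-324-3p (0.783) and far below it in 75th percentile signal (0.838).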

How the results depend on the processing

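The count of miRNAs called at day 2 was 4 as reported. It was 9 without scaling, 8 with spike-in scaling, 2 with quantile normalization, 2 in the deposited table, 2 with a replicate block and 8 in a fit to the 2 groups alone, 3 of them among the 4. It was 0 within slide 2 and with a slide block, fixed or random, 0 with normexp background correction (also without offset or without scaling, both added after seeing the data), and 0 under a filter that asks for detection on every array of the 2 groups, which leaves out the 4 called. Leaving out 1 array gave 2 to 5, the 2 without AAI day 2 array 4. From day 2 to day 4, 0 became 34 with slide as a fixed block. From day 2 to day 6, 29 became 3 without scaling, 16 with the percentile over all miRNAs, 5 with median scaling, 16 with quantile normalization, 2 with spike-ins, 6 with normexp, 5 with normexp without offset, 4 with normexp without scaling, 7 with the software's total signal, 18 with outlier spots kept, 95 with slide as a fixed block, 19 with the 2 groups alone, 18 in the deposited table and 8 to 34 when 1 array was left out. The replicate block concerns numbers that did not pair the arrays, and 2 of 5 arrays correlated best with their own number.

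Direction turned for some named miRNAs. Without scaling, log2 changes became 0.092 (miR-101a-3p), 0.012 (miR-140-5p), 0.049 (miR-146a-5p), 0.15 (miR-196b-5p), 0.041 (miR-29c-5p), 0.10 (miR-324-3p), 0.045 (miR-505-3p) and 0.15 (miR-532-5p). With spike-ins they became 0.055 (miR-101a-3p), 0.012 (miR-146a-5p), 0.12 (miR-196b-5p), 0.0039 (miR-29c-5p), 0.067 (miR-324-3p), 0.0077 (miR-505-3p) and 0.12 (miR-532-5p). With normexp without scaling they became 0.074 (miR-101a-3p), 0.017 (miR-140-5p), 0.046 (miR-146a-5p), 0.12 (miR-196b-5p), 0.027 (miR-29c-5p), 0.095 (miR-324-3p), 0.018 (miR-339-3p), 0.031 (miR-505-3p) and 0.062 (miR-532-5p). With normexp they became -0.078 (miR-10a-3p), -0.031 (miR-21-3p), -0.11 (miR-23a-5p), -0.084 (miR-382-5p), -0.012 (miR-465-5p), -0.18 (miR-489-3p), -0.0044 (miR-551b-5p) and -0.13 (miR-760-3p), and without offset -0.047 (miR-489-3p). The 4 called miRNAs lay above 0 with normexp without offset and with normexp without scaling. With the software's total signal miR-382-5p became -0.32. The difference in detected miRNAs, 4.8, ranged from -0.1 to 6.9 when 1 array was left out, below 0 without AAI day 2 array 3. The log2 difference in 75th percentile signal, 0.29 (exact permutation p = 0.0635), was 0.30 over all miRNAs (exact permutation p = 0.0238) and 0.19 to 0.37 when 1 array was left out. The cause of these shifts was not tested, and the signal over background limits the faint miRNAs.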

Other observations

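The called miRNAs share a probe property, which was looked at after their values were seen and is given with no test. Their longest probes hold at most 15 bases, as do those of 68 of the 262 tested miRNAs. Among these 68 the median log2 change at day 2 was 0.01 (0.17 within slide 2, 0.15 at day 4 and 0.11 at day 6, each against vehicle), and 51.5% lay above 0. Among the 194 with a longer probe the median was -0.05 (-0.07 within slide 2, -0.10 at day 4 and -0.16 at day 6), and 33.0% lay above 0. Counted at an unadjusted p under 0.05, 10 of the 68 were higher and 3 lower, against 7 and 9 of the 194. With normexp background correction the medians were in the other order, -0.14 for the 68 and -0.11 for the 194. The 3 days share the vehicle arrays.

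Of the 262 tested miRNAs, 237 were detected on all 10 arrays of the 2 groups. Among these, 84 had a change above 0, the median was -0.05 and 0 were called. All 4 calls came from the other 25, of which 15 lay above 0. No miRNA reached detection on 5 arrays of one group and 0 of the other. Of all 719 miRNAs, 34 were detected on more AAI day 2 than vehicle arrays and 20 on fewer.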
